A study of Mus musculus with 12 samples.

Results

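The 34 genes described here encode nuclear receptors that are not part of the circadian clock loop itself: the PPAR, LXR, FXR, PXR, CAR, vitamin D, thyroid hormone, retinoid, steroid and orphan receptors of the mouse. They were taken by symbol from a table of exon counts for 22618 genes. All 34 were in the table, and the 31 with a mean of at least 0.5 CPM were used. CPM are counts per 1e6 counts, scaled here to a common library size after correction for library composition. The clock-loop receptors REV-ERB and ROR are outside the set.

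The livers came from male C57BL/6j mice, aged 12 to 16 weeks, with a conventional gut flora, that were fed at night and lack both cryptochrome genes, Cry1 and Cry2 (Cry1/2 DKO). All 12 libraries carry this genotype, so the comparisons are of times of day within the mutant. The 6 groups of 2 libraries were taken at zeitgeber time (ZT) 2, 6, 10, 14, 18 and 22. ZT12 is by convention lights-off, and the 3 times after it are taken as night, the 3 before it as day. The light schedule is not given in the sources used here, and wild-type libraries were not analysed here. The labels do not say whether the libraries of a time point came from separate animals. The p-values below therefore measure spread between libraries, which may be partly technical.

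Nuclear receptors are transcription factors that carry a zinc-finger DNA-binding domain and a pocket for small lipophilic ligands such as fatty acids, oxysterols, bile acids, steroids, thyroid hormone and retinoids. Many of them bind DNA as dimers with a retinoid X receptor, and they exchange corepressors for coactivators when ligand binds. In liver they are known for setting fatty acid oxidation, bile acid and cholesterol turnover, drug clearance and the hepatocyte program.

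Library totals ran from 34715506 to 46074052 counts, so a count of 0 allows at most 0.0651 to 0.0864 CPM per library (3 counts of the total, counting error only). The labels name no batch or date. Reads remained at both targeted genes (202 to 544 counts for Cry1, 462 to 819 for Cry2), which gene-level counts cannot assign to exons inside or outside a deletion. All 8 hepatocyte markers were detected, with Alb at 66616 ± 8259 CPM (SD, n = 12). The summed markers of other cell types were lower: 225 to 415 CPM for Kupffer cells (7 of 8 genes in the table), 398 to 555 for sinusoidal endothelium (8 of 8) and 251 to 317 for stellate cells (8 of 8). Cholangiocyte markers summed to 35.6 to 70.5 CPM (6 of 6), erythroid markers to 72.9 to 166 (4 of 6), pancreatic acinar markers to 6.35 to 37.4 (8 of 9), lymphocyte markers to 1.31 to 5.53 (8 of 8) and adipocyte markers to 0 to 1.52 (3 of 4). In whole tissue, fewer cells of a type and less RNA per cell cannot be told apart.

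Receptor mRNA levels are compared as CPM per kb of exon. Hnf4a, the hepatocyte identity factor, was highest at 134 CPM per kb, above 97.6% of all tested genes on that scale. Rxra (86.3 CPM per kb), Nr1i3, which encodes CAR (74.4), Nr1h4, which encodes FXR (59.0), and Ppara (43.6) followed. Next came Nr2f6 (40.3), Nr0b2 (33.5), Nr1h3 (33.4), Nr1i2 (28.8) and Nr3c1 (18.9 CPM per kb). Neighbours in this order overlapped between their 12 libraries, apart from Hnf4a over Rxra, Nr1i2 over Nr3c1 and Nr3c1 over Nr5a2. The 16 receptors from Nr5a2 (10.2 CPM per kb) to Rarb (1.72) came after them, and the lowest of the 31 were Nr6a1 (0.908), Esrrg (0.446), Ppard (0.419), Nr4a1 (0.399) and Nr2f1 (0.160). The 3 genes under 0.5 CPM were Hnf4g, just below the limit with a mean of 0.319 CPM (highest in ZT02 replicate 1), Nr4a2 at 0.233 CPM (highest in ZT10 replicate 1) and Vdr, the vitamin D receptor, at 0.0315 CPM (highest in ZT22 replicate 1, with 0 to 6 counts per library). Just above the limit was Nr2f1 at 0.816 CPM.

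**Figure D1:**
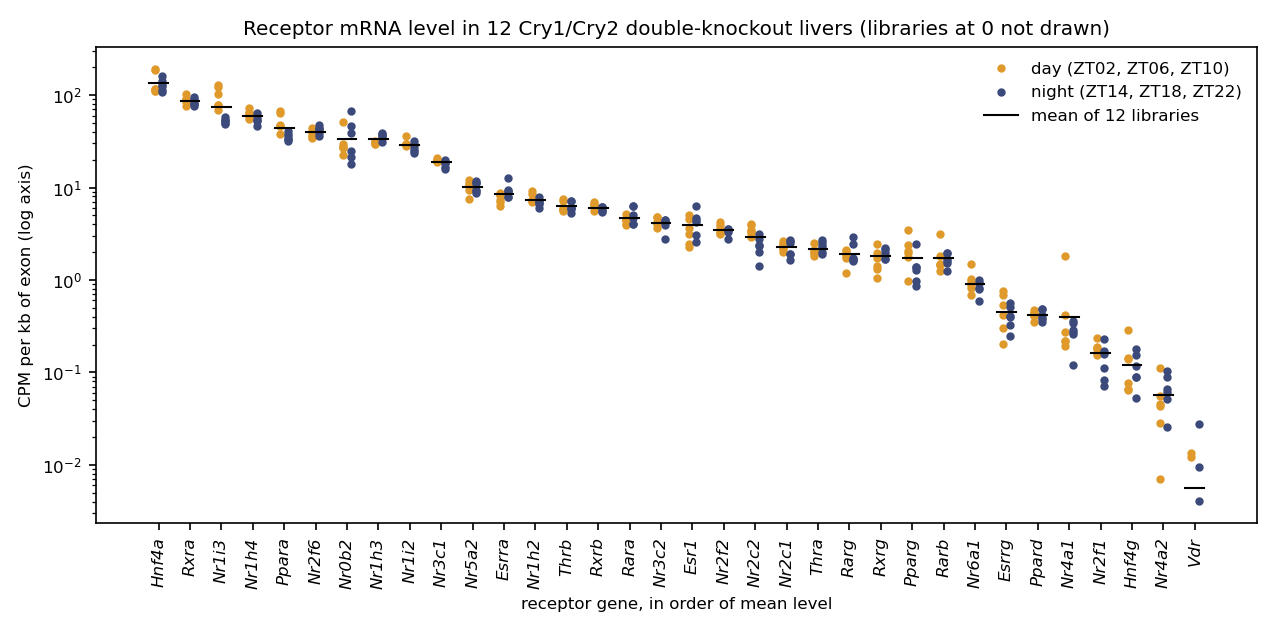
Level of each of the 34 receptor genes in the 12 libraries, as CPM per kb of exon on a log axis, ordered by mean; orange points are day libraries, blue points night libraries and black lines means. Hnf4a leads at 134 and Vdr is lowest, and the day and night points of Nr1i3 separate.

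Daily variation was called in a minority of the receptors and was small in most. A gene was called at an adjusted p under 0.05 in edgeR's quasi-likelihood test, adjusted over all 17142 tested genes. In the test of a 24 h cosine, 6 of the 31 receptors were called (19.4%), beside 12.0% of all tested genes: Esr1, Hnf4a, Nr1i3, Esrra, Ppara and Nr1h4. In the test of any difference among the 6 time points, 3 were called (9.68%), beside 4.82% of all genes: Esr1, Hnf4a and Nr2c2. Night against day called 3 receptors lower at night (9.68%, beside 4.89% of all genes), Nr1i3, Nr2c2 and Ppara. It called 0 higher at night in edgeR (3 at an unadjusted p under 0.05, 2 in DESeq2, 0 in limma-voom), beside 4.80% of all genes, with 9.70% of all genes called in either direction. At an unadjusted p under 0.05 the 24 h test held 10 receptors, beside 31.5% of all genes. Together 7 receptors were called in at least 1 of these tests, which all use the same 12 libraries, and 24 in none. The share of all genes called in at least 1 test was not counted, so the 7 serves only to name genes.

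The counts moved with single libraries. In a fit that leaves a time point with 1 library, that library is assumed to vary like those of the other times. With ZT02 replicate 1 and ZT06 replicate 2 both left out, the 24 h count was 2 (Hnf4a and Esr1). The 6-time-point count was 5 without ZT06 replicate 1, 6 without ZT10 replicate 2 and 9 in DESeq2, and the night count was 5 in DESeq2 and without ZT14 replicate 2. Without ZT14 replicate 2, edgeR called Nr1h3 and Esrra higher at night, and DESeq2 did so too. With scaling by total counts alone Nr1h3 was called higher at night (edgeR adjusted p = 0.0438), and the split of all genes turned from 823 higher and 839 lower to 1077 higher and 624 lower.

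The range of a gene is the ratio of the peak to the trough of a 24 h cosine fitted to its log2 CPM. The median range of the 31 receptors was 1.28-fold, beside 1.31-fold over all tested genes. The 4 receptors above 2-fold were Esr1, Nr4a1, Nr1i3 and Pparg, of which Esr1 and Nr1i3 were called, beside 8.95% of all tested genes above 2-fold. Of the 25 not called in the 24 h test, 16 had a 95% interval of the range that ended below 2-fold and 11 one that ended below 1.5-fold. For the other 9 a 2-fold range lay within the interval. A fitted range cannot fall below 1, so an interval that starts above 1 is not read as a daily rhythm.

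**Figure D2:**
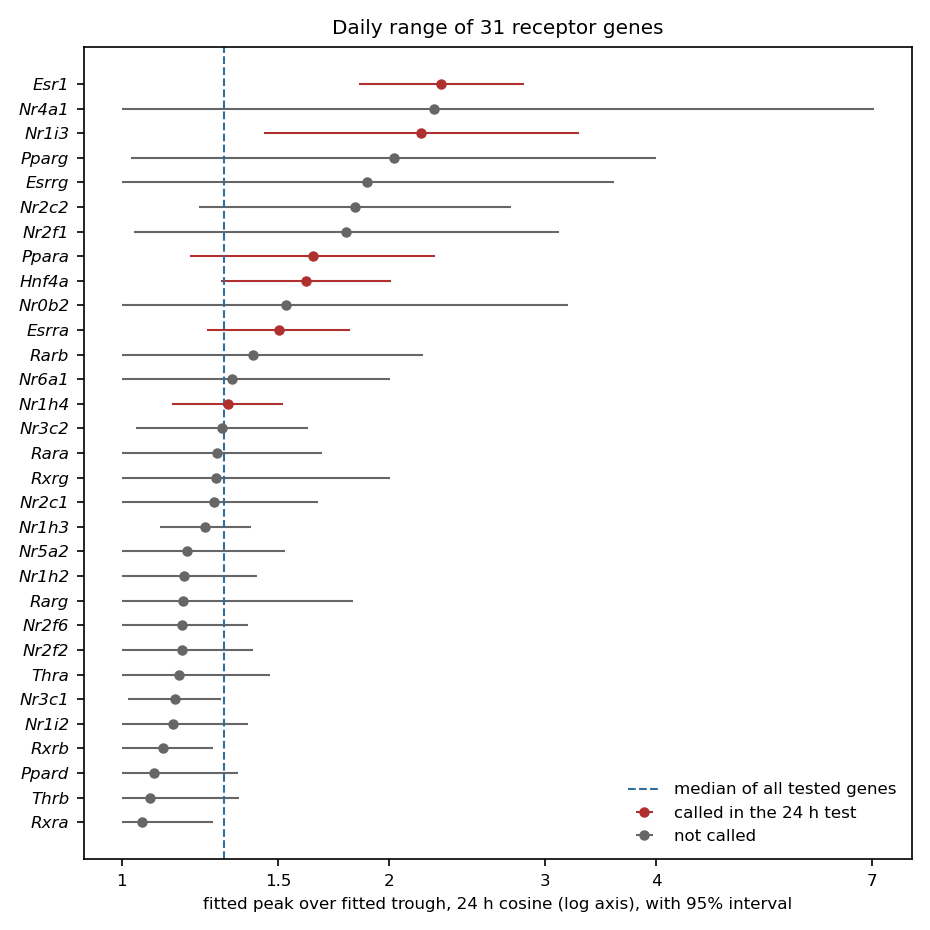
Fitted 24 h range of the 31 receptors (points) with its 95% interval (bars, cut at 1) on a log axis; red marks genes called in the 24 h test and the dashed line the median of all tested genes. Esr1 has the largest range at 2.29 and Rxra the smallest at 1.05, and the interval of Nr4a1 is the widest.

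Peak times of the 6 receptors called in the 24 h test were spread over the day. They were ZT 5.30 ± 1.11 h (SE) for Ppara, ZT 5.69 ± 0.89 h for Nr1i3, ZT 7.25 ± 0.89 h for Nr1h4, ZT 11.8 ± 0.78 h for Hnf4a, ZT 14.5 ± 0.77 h for Esrra and ZT 22.7 ± 0.44 h for Esr1. Fits to replicate 1 and replicate 2 alone placed each of these 6 peaks within 4 h of each other. The genes were called on both replicates together, so this closeness is partly fixed by the selection and is no separate evidence. Of the 25 receptors not called, 16 had replicate fits more than 4 h apart, so no order is read from their peaks. By group means, the 31 receptors were highest at ZT02 in 6 cases, ZT06 in 7, ZT10 in 6, ZT14 in 3, ZT18 in 8 and ZT22 in 1. The shares of all tested genes with their highest mean at these times, in the same order, were 14.9%, 15.4%, 20.8%, 18.6%, 18.4% and 11.9%. The receptors were lowest at ZT14 in 9 cases and at ZT10 in 8, where 16.6% and 21.7% of all tested genes had their lowest mean. The median night minus day difference was -0.09 on the log2 scale for the receptors and 0.01 for all genes, with 22 of 31 receptors below 0. The share of all genes below 0 was not counted and only 3 of these receptors were called, so no trend is read from the 22.

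**Figure D3:**
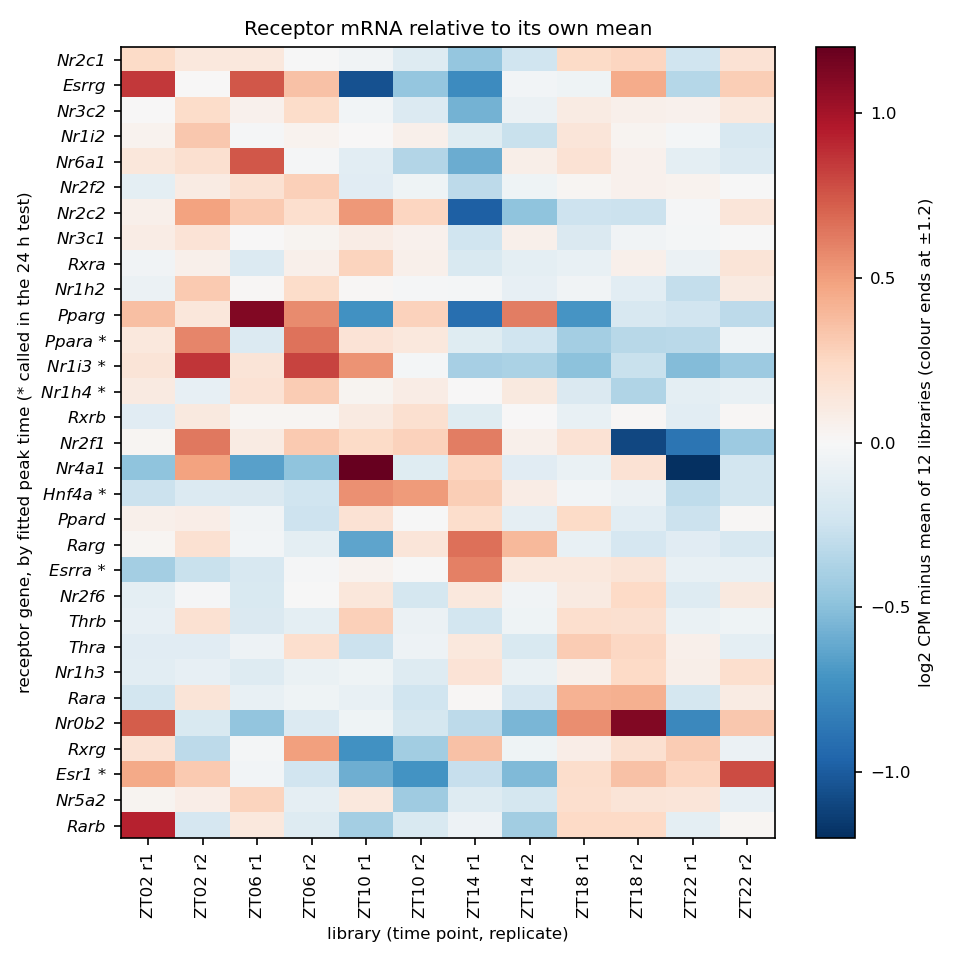
Colour shows log2 CPM minus the gene's mean over 12 libraries for the 31 receptors (rows, ordered by fitted peak time, with an asterisk for those called in the 24 h test) in each library (columns); values past 1.2 take the end colour. Replicates 2 of ZT02 and ZT06 are both red for Ppara and Nr1i3. The darkest red cells of Nr4a1, Pparg and Rarb are in ZT10 replicate 1, ZT06 replicate 1 and ZT02 replicate 1. Nr4a1 is also dark blue in ZT22 replicate 1.

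The sequence upstream of annotated starts was read for the receptors in RefSeq (GRCm38.p6). It shows what lies before starts of the genes that varied and what common motifs of the clock and of nuclear receptors look like there. Of the 34 genes, 31 had an entry, with 50 starts in all. In the 250 bases before each start, on both strands, the E-box CACGTG bound by CLOCK:BMAL1 was in 4 of 50 receptor windows, beside 6.02% of all 32851 windows. The D-box TTATGTAA was in 0 of 50, beside 0.819%. The half-site AGGTCA, the core of most nuclear receptor elements, was in 9 of 50, beside 14%. The DR1 element, in which that half-site is repeated after 1 base, was in 0 of 50, beside 0.0335%. Windows of Ppara, Hnf4a, Esr1 and Esrra, which were all called, hold none of these motifs. They hold annotated exon bases and are not shown. The 4 windows shown are free of exons and are written 5′ to 3′ on the gene's strand. Those of Nr1h4 and Nr2c2 lie inside the gene's span, before an internal start, and not before the whole gene. The windows shown were chosen as follows. They are those of the 3 other called receptors, and that of Nr0b2, which was not called and has an E-box. Capitals mark the E-box in Nr1i3 and Nr0b2 and the half-site, on the opposite strand, in Nr1h4, and Nr2c2 has no match. The other E-box windows are those of Rara and Thrb, which were not called. A match is only a run of letters, and no binding was measured.
Nr1i3, plus strand, chr1:171213720-171213969: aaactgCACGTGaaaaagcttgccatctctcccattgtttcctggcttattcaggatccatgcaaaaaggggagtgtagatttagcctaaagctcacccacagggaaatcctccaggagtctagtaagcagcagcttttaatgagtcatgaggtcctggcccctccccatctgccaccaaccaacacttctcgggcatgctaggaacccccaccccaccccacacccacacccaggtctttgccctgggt
Nr1h4, minus strand, chr10:89506659-89506908: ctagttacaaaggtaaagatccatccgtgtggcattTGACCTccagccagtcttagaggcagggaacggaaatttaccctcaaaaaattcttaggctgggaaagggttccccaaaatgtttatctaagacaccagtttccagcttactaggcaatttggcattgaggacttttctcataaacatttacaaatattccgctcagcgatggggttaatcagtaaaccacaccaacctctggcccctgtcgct
Nr2c2, plus strand, chr6:92092183-92092432: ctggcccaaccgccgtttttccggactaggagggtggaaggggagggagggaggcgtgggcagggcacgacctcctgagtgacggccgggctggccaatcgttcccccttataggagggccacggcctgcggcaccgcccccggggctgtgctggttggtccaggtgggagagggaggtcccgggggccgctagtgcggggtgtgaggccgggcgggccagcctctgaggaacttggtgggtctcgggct
Nr0b2, plus strand, chr4:133553126-133553375: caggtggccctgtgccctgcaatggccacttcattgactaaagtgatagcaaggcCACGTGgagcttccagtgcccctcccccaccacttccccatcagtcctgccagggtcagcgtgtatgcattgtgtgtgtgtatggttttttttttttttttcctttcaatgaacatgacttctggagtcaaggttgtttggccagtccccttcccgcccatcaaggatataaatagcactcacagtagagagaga

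Among the fatty acid sensors, Ppara was the one called. Ppara (ENSMUSG00000022383, chromosome 15, 85734983 to 85802819, mm10), the fasting-activated inducer of fatty acid oxidation, measured 177 and 244 CPM at ZT02, 145 and 256 at ZT06, 182 and 177 at ZT10, then 147 and 137 at ZT14, then 122 and 129 at ZT18, then 130 and 159 at ZT22, replicate 1 first. The highest values were replicate 2 of ZT02 and of ZT06, and 1 day value (145 CPM) lay inside the night range. The fitted range was 1.64-fold (95% interval 1.19 to 2.26, edgeR adjusted p = 0.0330). Its night mean was 137 ± 13.4 CPM (SD, n = 6) against 197 ± 43.3 by day, which is -0.52 ± 0.13 on the log2 scale (SE; edgeR adjusted p = 0.0355). Leaving out 1 library ended the 24 h call in 7 of 12 cases (ZT02 replicate 2, ZT06 replicate 2, ZT10 replicate 2 and both libraries of ZT14 and ZT18, edgeR adjusted p 0.0522 to 0.0960). It ended the night call in every case but ZT02 replicate 1 and ZT06 replicate 1 (adjusted p 0.0556 to 0.105), and scaling by total counts alone ended both.

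Pparg, the adipocyte regulator, had a mean of 5.13 CPM, was highest at ZT06 (8.60 CPM) and had a range of 2.03-fold that was not called (interval 1.03 to 4.00, edgeR adjusted p = 0.145). The groups overlapped: its lowest and highest values were 2.52 CPM in ZT14 replicate 1 and 10.2 in ZT06 replicate 1, and the other ZT14 library was at 7.19. Without ZT14 replicate 2 it was called in the 24 h test (edgeR adjusted p = 0.0429) and lower at night (0.0315), and without ZT10 replicate 1 in the 24 h test (0.0497). Ppard, the broadly expressed member of the family, was at 3.15 CPM, highest at ZT10, with a range of 1.09-fold (interval up to 1.35).

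PPARα target genes were lower at night where they were called. Of 19 listed targets, all tested, 7 were called in the 24 h test (36.8%, beside 12.0% of all genes), 8 lower at night (beside 4.89%) and 0 higher (also 0 at an unadjusted p under 0.05, in DESeq2 and in limma-voom), with a median night minus day difference of -0.52 (log2) beside 0.01 for all genes. Cyp4a14, a fatty acid ω-hydroxylase gene, had a night mean of 289 ± 169 CPM and a day mean of 1031 ± 441 (SD, n = 6; edgeR adjusted p = 0.00249). Acot1, an acyl-CoA thioesterase gene, was at 24.7 ± 4.23 and 52.0 ± 13.1 CPM (edgeR adjusted p = 0.00495). Ehhadh, of peroxisomal β-oxidation, was at 281 ± 38.3 and 448 ± 66.6 CPM (edgeR adjusted p = 0.00377). These 3 night calls held in each fit without 1 library, whereas the count of 8 was 3 without ZT18 replicate 2, 4 without ZT14 replicate 1 or ZT18 replicate 1 and 5 without either ZT22 library. The 24 h count was 3 without either ZT18 library or ZT22 replicate 1, 4 without ZT06 replicate 2 or ZT22 replicate 2, and 1 without ZT02 replicate 1 and ZT06 replicate 2 together. Several of these genes were known to vary in these libraries when the list was drawn, so the count is no independent evidence of its direction.

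Among the oxysterol, bile acid and xenobiotic receptors, edgeR called CAR and FXR. Nr1i3 (ENSMUSG00000005677, chromosome 1, 171213970 to 171220701), which encodes CAR, the phenobarbital-responsive regulator of drug metabolism, measured 344 and 561 CPM at ZT02, 345 and 543 at ZT06, 449 and 305 at ZT10, then 235 and 238 at ZT14, then 221 and 258 at ZT18, then 215 and 230 at ZT22. All 6 day values were above all 6 night values. Replicate 2 exceeded replicate 1 at both ZT02 and ZT06, and the order was the opposite at ZT10. The fitted range was 2.18-fold (95% interval 1.45 to 3.28, edgeR adjusted p = 0.0161). The night mean was 233 ± 14.9 CPM against 425 ± 110 by day (SD, n = 6), which is -0.86 ± 0.15 on the log2 scale (SE; edgeR adjusted p = 0.0084). The night call held in all 20 alternative fits (adjusted p up to 0.0385), and the 24 h call was lost only without ZT02 replicate 1 and ZT06 replicate 2 together (0.0759).

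On the opposite strand, Tomm40l covers 74.9% of the exon bases of Nr1i3. If counting ignored strand, reads of both could fall in 1 count. The Tomm40l count was at 8.31 ± 1.43 CPM (SD, n = 12) and highest in ZT10 replicate 1 at 11.0, and the part of Tomm40l reads in the Nr1i3 values was not tested. The summed hepatocyte markers, most of which is Alb, were at 89613 to 116277 CPM by day and 81318 to 90663 at night. Alb was not called between night and day (edgeR adjusted p = 0.280). Neither was Ttr, lower at night (3450 against 4194 CPM), nor Apoa1, higher at night (4276 against 3750 CPM). Summed sinusoidal endothelial markers were at 422 to 555 CPM by day and 398 to 473 at night. The part of either cell type in the day-high receptors was not tested. In the CAR and PXR target list, 1 of 14 genes was called in the 24 h test (7.14%, beside 12.0% of all genes), 2 lower at night (beside 4.89%) and 0 higher (also 0 unadjusted, in DESeq2 and in limma-voom), with a median difference of -0.15. The first 2 counts were 3 and 4 in DESeq2 and without ZT10 replicate 1, the 24 h count was 2 without ZT06 replicate 2, with limma-voom and with total counts only, and the night count was 1 without ZT14 replicate 1, ZT22 replicate 1 or either ZT18 library. Por, the electron donor of microsomal cytochromes P450, had a night mean of 306 ± 45.4 CPM and a day mean of 453 ± 49.99 (SD, n = 6; edgeR adjusted p = 0.00495), a call that held without any 1 library. Abcc2, a bile canalicular transporter gene, was at 317 ± 30.6 and 400 ± 33.7 CPM (edgeR adjusted p = 0.0201), and this call was lost without ZT14 replicate 1, ZT22 replicate 1 or either ZT18 library (adjusted p 0.0562 to 0.0752).

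Nr1h4 (ENSMUSG00000047638, chromosome 10, 89454234 to 89533585), which encodes FXR, the bile acid receptor, measured 146 and 126 CPM at ZT02, 153 and 167 at ZT06, 138 and 143 at ZT10, then 136 and 146 at ZT14, then 119 and 105 at ZT18, then 124 and 127 at ZT22. The ZT06 pair was the highest and the ZT18 pair the lowest, and day and night values overlapped. The range was 1.32-fold (95% interval 1.14 to 1.52, edgeR adjusted p = 0.0465). This call was the weakest of the 6: it was lost without any 1 library except ZT10 replicate 1 or ZT14 replicate 2 (edgeR adjusted p 0.0514 to 0.128), and with scaling by total counts alone (0.0597). Of 8 tested FXR and bile acid targets, 1 was called in the 24 h test (12.5%, beside 12.0% of all genes) and lower at night (beside 4.89%), Cyp8b1, a gene of cholic acid synthesis, with 328 ± 71.7 CPM at night and 496 ± 196 by day (SD, n = 6; edgeR adjusted p = 0.0303). That night call held when the library left out was ZT02 replicate 1, ZT06 replicate 1, either of ZT10 or ZT18 replicate 2, and was lost in the other 7 cases. Of the 12 fits that leave out 1 library, 11 ended its 24 h call. Over 6 time points Cyp7a1, the rate-limiting enzyme gene of bile acid synthesis, was called beside Cyp8b1 (edgeR adjusted p = 0.0417), with its highest mean at ZT06 (359 CPM). It was named after its values were seen. The list's count in that test was 2 of 8, beside 4.82% of all genes. The list's median difference was -0.12. Nr0b2 is both a listed target and a receptor here. The list mixes it with genes of bile acid synthesis and transport and was not split into genes that FXR raises or lowers. Neither the count nor the median is therefore read as FXR activity.

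The LXR pair was not called in edgeR. Nr1h3, which encodes LXRα, the main hepatic oxysterol receptor, averaged 83.9 CPM, was highest at ZT18 (93.0 CPM) and had a range of 1.24-fold (interval 1.10 to 1.40; by edgeR, adjusted p = 0.0667). Its night values were 78.8 to 98.8 CPM and its day values 75.0 to 80.7, and 5 of 6 night libraries, all but ZT14 replicate 2, were above every day library (log2 difference 0.22 ± 0.07, SE, edgeR adjusted p = 0.0609). DESeq2 called it in the 24 h test (adjusted p = 0.0227) and at night (0.0403). Nr1h2, which encodes LXRβ, averaged 24.6 CPM, highest at ZT02, with a range of 1.18-fold (interval up to 1.42). Of 10 LXR targets, 3 were called in the 24 h test (30%, beside 12.0% of all genes) and lower at night (beside 4.89%) and 0 higher (2 unadjusted, 1 in DESeq2, 0 in limma-voom, 2 with scaling by total counts alone), with a median difference of -0.30. Without 1 library the night count was 2 to 4; the 24 h count was 2 without either ZT18 library and 1 without ZT02 replicate 1 and ZT06 replicate 2 together. Abcg8, which forms the hepatic sterol exporter with Abcg5, had a night mean of 48.8 ± 6.72 CPM and a day mean of 90.8 ± 24.9 (SD, n = 6; edgeR adjusted p = 0.00562). Abcg5 was at 45.2 ± 6.33 and 73.1 ± 16.0 CPM (edgeR adjusted p = 0.00736). Both night calls held without any 1 library. Lpcat3, a phospholipid-remodelling enzyme gene, was at 83.4 ± 9.56 and 107 ± 18.6 CPM (edgeR adjusted p = 0.0193), a night call lost without ZT02 replicate 2, ZT14 replicate 1, ZT22 replicate 1 or either ZT18 library.

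Nr1i2, which encodes PXR, the receptor for many drugs and steroids, averaged 73.6 CPM, was highest at ZT02 (83.6 CPM) and had a range of 1.14-fold (interval up to 1.39, edgeR adjusted p = 0.459). CAR and PXR share many target genes. Here the called difference was in Nr1i3 and not in Nr1i2, and the difference between those genes was not tested.

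**Figure D4:**
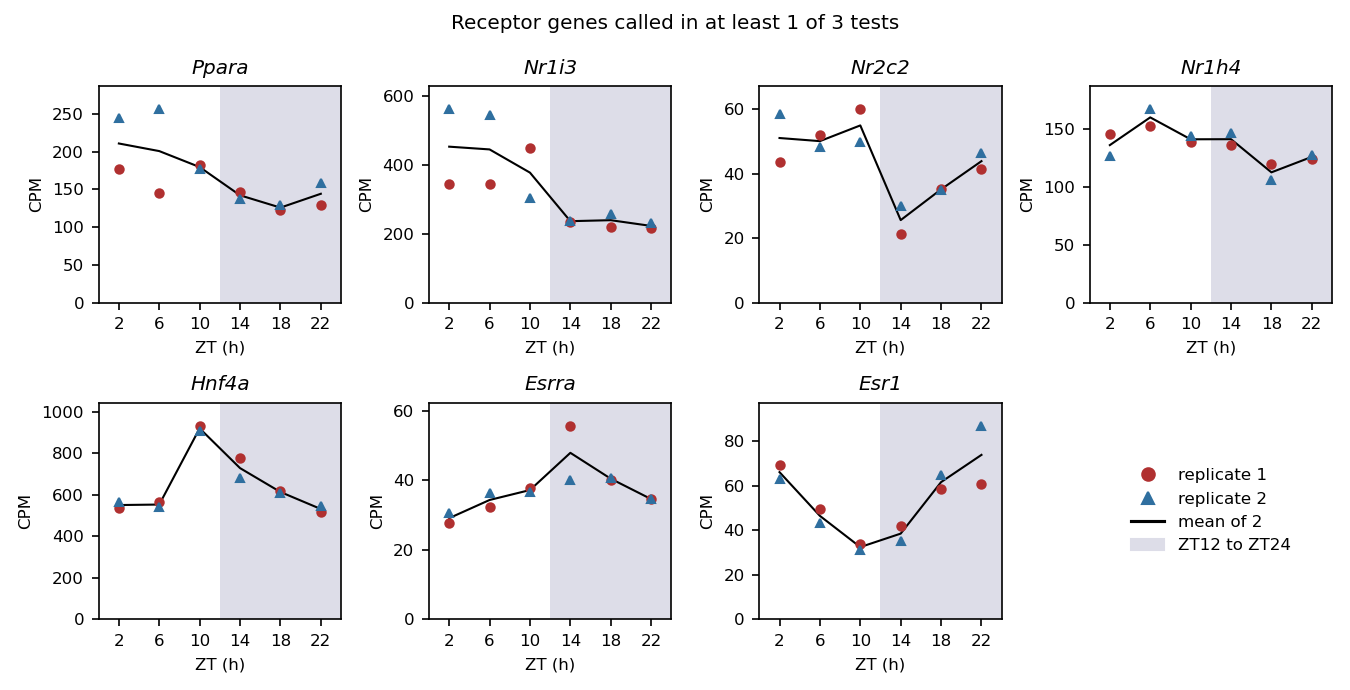
CPM of the 7 receptors called in at least 1 test at each zeitgeber time; circles are replicate 1, triangles replicate 2, the line joins the means and shading covers ZT12 to ZT24. Nr1i3, Ppara and Nr2c2 are higher on the left, unshaded side, Hnf4a peaks at ZT10, Esrra at ZT14 and Esr1 at ZT22.

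Of the 5 thyroid hormone and retinoic acid receptors, 0 were called in any of the 3 edgeR tests of all 12 libraries, beside 12.0% of all genes in the 24 h test, 4.82% over 6 time points and 9.70% between night and day, and in the 24 h test the count was also 0 at an unadjusted p under 0.05, in DESeq2 and in limma-voom. Thrb (ENSMUSG00000021779, chromosome 14, 17660261 to 18038090), the main thyroid hormone receptor of hepatocytes, measured 43.1 and 52.3 CPM at ZT02, 40.9 and 42.4 at ZT06, 56.2 and 43.9 at ZT10, then 39.5 and 44.4 at ZT14, then 52.8 and 52.5 at ZT18, then 43.7 and 44.5 at ZT22. High and low values were found by day and by night, and the range was 1.08-fold with an interval up to 1.36 (edgeR adjusted p = 0.827). Thra averaged 10.1 CPM, highest at ZT18, with a range of 1.16-fold. Rara averaged 20.7 CPM, with both ZT18 libraries highest (27.3 and 27.4 CPM) and a range of 1.28-fold (edgeR adjusted p = 0.208). Rarg averaged 8.10 CPM, highest at ZT14, with a range of 1.17-fold, and was called over 6 time points without ZT10 replicate 2 (edgeR adjusted p = 0.0355). Rarb, itself a retinoic acid target gene, averaged 9.07 CPM, highest at ZT02 through replicate 1 alone (16.6 CPM against 7.63 in replicate 2), with a range of 1.40-fold (interval up to 2.18), and was called over 6 time points without ZT02 replicate 2 (edgeR adjusted p = 0.0395), when the high library alone stands for ZT02. Top2b, at 88.3 CPM, lies opposite 34.1% of Rarb's exon bases, so its reads could enter the Rarb count if strand was ignored.

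Of 8 thyroid hormone targets, 1 was called in the 24 h test (12.5%, beside 12.0% of all genes) and higher at night (beside 4.80%), Bcl3, at 22.6 ± 6.16 CPM at night and 13.1 ± 3.57 by day (SD, n = 6; edgeR adjusted p = 0.00576). It is a transcriptional cofactor gene and its calls in these tests held without any 1 library. Over 6 time points Cyp7a1, which is also on this list, was called too, and the list's count was 2 of 8 (beside 4.82% of all genes). The count higher at night was 3 without ZT02 replicate 1 or ZT06 replicate 1, and 2 without either ZT10 library and in DESeq2. The list's median difference was 0.32. Of 6 tested retinoic acid targets, 2 were called in the 24 h test (33.3%, beside 12.0% of all genes) and 1 higher at night (beside 4.80%). Tgm2, a transglutaminase gene, had a night mean of 158 ± 26.5 CPM and a day mean of 112 ± 13.8 (SD, n = 6; edgeR adjusted p = 0.0108), held without any 1 library. Dhrs3, a retinal reductase gene, had a range of 1.35-fold with its peak at ZT 0.659 (edgeR adjusted p = 0.0304), lost without ZT02 replicate 1, ZT10 replicate 2, either ZT14 library or ZT18 replicate 2. The median difference of this list was near 0, and Rarb is both a listed target and a receptor here.

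The 3 retinoid X receptors, the shared dimer partners, had the lowest median range of the role classes, at 1.11-fold. The thyroid hormone and retinoid receptors were next to them at 1.17-fold, and the difference between classes was not tested. Rxra (ENSMUSG00000015846, chromosome 2, 27676440 to 27762957) measured 456 and 490 CPM at ZT02, 420 and 489 at ZT06, 565 and 488 at ZT10, then 413 and 432 at ZT14, then 441 and 490 at ZT18, then 447 and 522 at ZT22. Day and night values overlapped, with the lowest at ZT14 and ZT06 and the highest in ZT10 replicate 1. The range was 1.05-fold with an interval up to 1.27 (edgeR adjusted p = 0.880). Rxrb averaged 24.1 CPM, highest at ZT10, with a range of 1.11-fold and an interval up to 1.27. Rxrg, the least abundant of the 3 per kb, averaged 4.13 CPM, highest at ZT06, with a range of 1.28-fold and an interval up to 2.01. Its ZT06 mean was 1.77-fold its ZT10 mean.

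Among the steroid receptors, Esr1 had the largest range of all 31 receptors. Esr1 (ENSMUSG00000019768, chromosome 10, 4611593 to 5005614), which encodes the estrogen receptor ERα, measured 69.2 and 62.8 CPM at ZT02, 49.5 and 43.2 at ZT06, 33.8 and 30.9 at ZT10, then 41.7 and 35.1 at ZT14, then 58.4 and 64.7 at ZT18, then 60.7 and 86.9 at ZT22. Both replicates fell from ZT02 through ZT06 to ZT10, and the ZT22, ZT18 and ZT02 libraries were all above those of the other times. The range was 2.29-fold (95% interval 1.85 to 2.84, edgeR adjusted p = 0.00217), and the 6-time-point test gave adjusted p = 0.0127. Both calls held in all 20 alternative fits (edgeR adjusted p up to 0.0153 and 0.0430), and the range without 1 library ran from 2.16 (ZT22 replicate 2) to 2.53 (ZT22 replicate 1). The night mean of 57.9 ± 18.3 CPM and the day mean of 48.2 ± 15.4 (SD, n = 6) were not called different (log2 difference 0.27 ± 0.09, SE, edgeR adjusted p = 0.0955), except without ZT22 replicate 1 (0.0412).

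Nr3c1, the glucocorticoid receptor gene, averaged 145.5 CPM, was highest at ZT02 (158 CPM) and had a range of 1.15-fold (interval 1.02 to 1.29; by edgeR, adjusted p = 0.288). Nr3c2, the mineralocorticoid receptor gene, averaged 26.8 CPM, highest at ZT06, with a range of 1.30-fold (interval 1.04 to 1.62; by edgeR, adjusted p = 0.169). Of 14 glucocorticoid targets, 2 were called in the 24 h test (14.3%, beside 12.0% of all genes), 2 lower at night (beside 4.89%) and 0 higher (1 unadjusted, 0 in DESeq2 and in limma-voom, 1 with scaling by total counts alone or without ZT10 replicate 1), with a median difference of -0.24. The 24 h count was 5 in DESeq2, 4 without ZT22 replicate 2 and 0 without ZT14 replicate 1 or ZT18 replicate 2. The night count was 3 in DESeq2 and 0 without ZT18 replicate 2 or ZT22 replicate 1. Tsc22d3, which encodes the glucocorticoid-induced leucine zipper, had a range of 2.68-fold with its peak at ZT 15.6 (edgeR adjusted p = 0.0250), lost without either ZT02 library, ZT06 replicate 2, ZT14 replicate 1 or ZT18 replicate 2. Dusp1, a MAP kinase phosphatase gene, had a range of 2.72-fold with its peak at ZT 13.1 (edgeR adjusted p = 0.0453), kept only without either ZT10 library among the fits without 1 library and lost in limma-voom (adjusted p = 0.0638). Igfbp1, which encodes a binding protein for insulin-like growth factors, had a night mean of 11.0 ± 8.39 CPM and a day mean of 58.8 ± 44.5 (SD, n = 6; edgeR adjusted p = 0.0156), lost without ZT18 replicate 2 or ZT22 replicate 1.

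Among the liver identity and orphan receptors, Hnf4a, Nr2c2 and Esrra were called. Hnf4a (ENSMUSG00000017950, chromosome 2, 163506808 to 163572910) measured 533 and 567 CPM at ZT02, 565 and 540 at ZT06, 933 and 907 at ZT10, then 778 and 678 at ZT14, then 619 and 607 at ZT18, then 516 and 546 at ZT22. The 2 ZT10 libraries were above all others and the ZT14 pair came next, while ZT02, ZT06 and ZT22 overlapped. The ZT10 mean was 1.73-fold that of ZT22. The range was 1.61-fold (95% interval 1.29 to 2.01, edgeR adjusted p = 0.0149), and the 6-time-point test gave adjusted p = 0.0134. Both calls held in all 20 alternative fits (edgeR adjusted p up to 0.0451 and 0.0497). Of 12 listed HNF4A targets, 0 were called in the 24 h test in edgeR (1 at an unadjusted p under 0.05, 1 in DESeq2, 1 in limma-voom), beside 12.0% of all genes, and 0 between night and day (1 unadjusted, 0 in DESeq2 and in limma-voom), with a median difference of -0.03. Apob had a range of 1.10-fold (interval up to 1.32) and Apoa2, another apolipoprotein gene, 1.14-fold (interval up to 1.27).

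Nr2c2 (ENSMUSG00000005893, chromosome 6, 92091390 to 92174294), an orphan receptor gene also known as testicular receptor, measured 43.6 and 58.5 CPM at ZT02, 51.9 and 48.3 at ZT06, 60.0 and 49.9 at ZT10, then 21.2 and 29.9 at ZT14, then 35.3 and 35.0 at ZT18, then 41.3 and 46.4 at ZT22. Both ZT14 libraries were below all others, and of the night libraries only ZT22 replicate 2 reached into the day range. The 6-time-point test gave an edgeR adjusted p of 0.0318. The night mean was 34.9 ± 8.78 CPM against 52.0 ± 6.23 by day (SD, n = 6), which is -0.61 ± 0.10 on the log2 scale (SE; edgeR adjusted p = 0.00724) that held in all 20 alternative fits. The 6-time-point call was lost without ZT10 replicate 1, ZT14 replicate 1 or any 1 library of ZT18 or ZT22 (edgeR adjusted p 0.0508 to 0.0938). The 24 h test missed (edgeR adjusted p = 0.0547) and was passed without ZT10 replicate 1 (0.0268), in DESeq2 and in limma-voom. Mrps25, opposite 30.7% of its exon bases, was at 11.0 ± 1.23 CPM (SD, n = 12) and highest at 13.0 in ZT14 replicate 1, where Nr2c2 was lowest. Its relative Nr2c1 averaged 10.5 CPM, with its lowest mean at ZT14 (8.13 CPM) as well, its highest at ZT18, and a range of 1.27-fold (edgeR adjusted p = 0.291).

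Esrra (ENSMUSG00000024955, chromosome 19, 6910977 to 6921813), which encodes the estrogen-related receptor ERRα, a regulator of mitochondrial genes, measured 27.7 and 30.5 CPM at ZT02, 32.2 and 36.4 at ZT06, 37.8 and 36.6 at ZT10, then 55.7 and 40.1 at ZT14, then 40.2 and 40.7 at ZT18, then 34.6 and 34.5 at ZT22. ZT02 was lowest in both replicates, and the 4 libraries of ZT14 and ZT18 were all at or above 40.1 CPM, higher than every other library. The range was 1.502-fold (95% interval 1.25 to 1.81, edgeR adjusted p = 0.0170), or 1.37-fold without the high ZT14 replicate 1. The call was lost without ZT02 replicate 1 (edgeR adjusted p = 0.0560). Esrrg, a related gene, averaged 2.77 CPM, highest at ZT06, with a range of 1.89-fold that was not called (interval up to 3.59, edgeR adjusted p = 0.187); DESeq2 called it over 6 time points (adjusted p = 0.0344).

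The other orphan receptors were not called in edgeR or DESeq2. Nr5a2, which encodes LRH-1, a regulator of bile acid synthesis, averaged 60.5 CPM, highest at ZT18, with a range of 1.18-fold (interval up to 1.53). The COUP-TF genes differed widely in level. Nr2f2 averaged 29.95 CPM, highest at ZT06, with a range of 1.17-fold. Nr2f1 averaged 0.816 CPM, highest at ZT14, with a range of 1.79-fold (interval 1.03 to 3.11). Their relative Nr2f6 averaged 120.3 CPM, highest at ZT18, with a range of 1.17-fold (interval up to 1.39); Ocel1, at 9.22 CPM, lies opposite 54.4% of its exon bases. Nr6a1, the germ cell nuclear factor gene, averaged 9.83 CPM, highest at ZT06, with a range of 1.33-fold (interval up to 2.01).

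The atypical and immediate-early receptors were not called in edgeR, with wide spread between libraries of 1 time. Nr0b2 (ENSMUSG00000037583, chromosome 4, 133553376 to 133556536), which encodes SHP, a repressor without a DNA-binding domain that FXR induces, measured 58.2 and 31.05 CPM at ZT02, 25.3 and 31.4 at ZT06, 33.8 and 30.3 at ZT10, then 28.4 and 24.0 at ZT14, then 51.8 and 76.0 at ZT18, then 20.5 and 43.9 at ZT22. Both ZT18 libraries and ZT02 replicate 1 stood above the rest, and the libraries of ZT02 and of ZT22 lay far apart within their pairs. The range was 1.53-fold with an interval up to 3.18 (edgeR adjusted p = 0.303), so a 2-fold range lay within the interval. Nr4a1, an immediate-early receptor gene, averaged 1.40 CPM, highest at ZT10 through replicate 1 alone (6.44 CPM against 0.956 in replicate 2), with a range of 2.25-fold and an interval up to 7.04. It was called over 6 time points in DESeq2 (adjusted p = 0.00321). In edgeR it was called without ZT10 replicate 2 (adjusted p = 0.0132), a fit in which the high library alone stands for ZT10 and the other times give the spread. The summed immediate-early markers (8 of 8 genes) were at 88.8 CPM in ZT10 replicate 1 and 60.5 in replicate 2, and at most 121 in any library, in ZT02 replicate 1; their part in the Nr4a1 value was not tested.

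The coactivators that nuclear receptors share were listed as well. Of 14 coactivators, 2 were called in the 24 h test (14.3%, beside 12.0% of all genes), 3 lower at night (beside 4.89%) and 0 higher (1 unadjusted, 0 in DESeq2 and in limma-voom), with a median difference of -0.09. The 24 h count was 0 without ZT02 replicate 1 or ZT14 replicate 2, and the night count 0 without ZT02 replicate 2, ZT14 replicate 1, ZT22 replicate 2 or either ZT18 library. Ppargc1a, the fasting-induced coactivator of PPARα and ERRα, had a night mean of 6.54 ± 0.717 CPM and a day mean of 9.76 ± 2.31 (SD, n = 6; edgeR adjusted p = 0.0246), lost without ZT02 replicate 2, ZT14 replicate 1, ZT22 replicate 2 or either ZT18 library. Ncoa2, a p160 coactivator gene, had a range of 1.34-fold (edgeR adjusted p = 0.0316), lost in 7 of 12 fits without 1 library and kept without ZT06 replicate 2, ZT10 replicate 1, ZT18 replicate 1 or either ZT22 library. Pprc1, a relative of Ppargc1a, had a range of 2.49-fold with its peak at ZT 12.9 (edgeR adjusted p = 0.0252), lost without ZT02 replicate 1 or ZT14 replicate 2.

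Of 10 tested genes that supply or clear ligands, 2 were called in the 24 h test (20%, beside 12.0% of all genes), 1 lower and 1 higher at night (beside 4.89% and 4.80%), with a median difference of -0.09. The 24 h count was 5 without ZT10 replicate 1 and 0 without ZT06 replicate 2, ZT10 replicate 2, either ZT18 library or ZT22 replicate 1, and each night count was 0 in 8 of 12 fits without 1 library. Srd5a1, a steroid reductase gene, had a night mean of 125 ± 22.3 CPM and a day mean of 85.3 ± 21.8 (SD, n = 6; edgeR adjusted p = 0.0337), a night call kept without ZT02 replicate 2, ZT06 replicate 1 or ZT22 replicate 2 and lost without any other 1 library. Rdh16, a retinol dehydrogenase gene, was at 49.3 ± 15.2 and 82.7 ± 29.4 CPM (edgeR adjusted p = 0.0288), a call kept without ZT02 replicate 2, ZT06 replicate 2 or either ZT10 library and lost without any other 1. Among the clock-loop receptors, 0 of 4 tested were called in the 24 h test in edgeR (2 at an unadjusted p under 0.05, 2 in DESeq2, 1 in limma-voom), beside 12.0% of all genes. Their median difference was -0.23, and 1 of the 4 was called lower at night (beside 4.89% of all genes). This was Nr1d2, which encodes REV-ERBβ, at 99.9 ± 23.9 CPM at night and 145 ± 21.4 by day (edgeR adjusted p = 0.0176), lost without ZT02 replicate 2, ZT18 replicate 1 or ZT22 replicate 1.

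**Figure D5:**
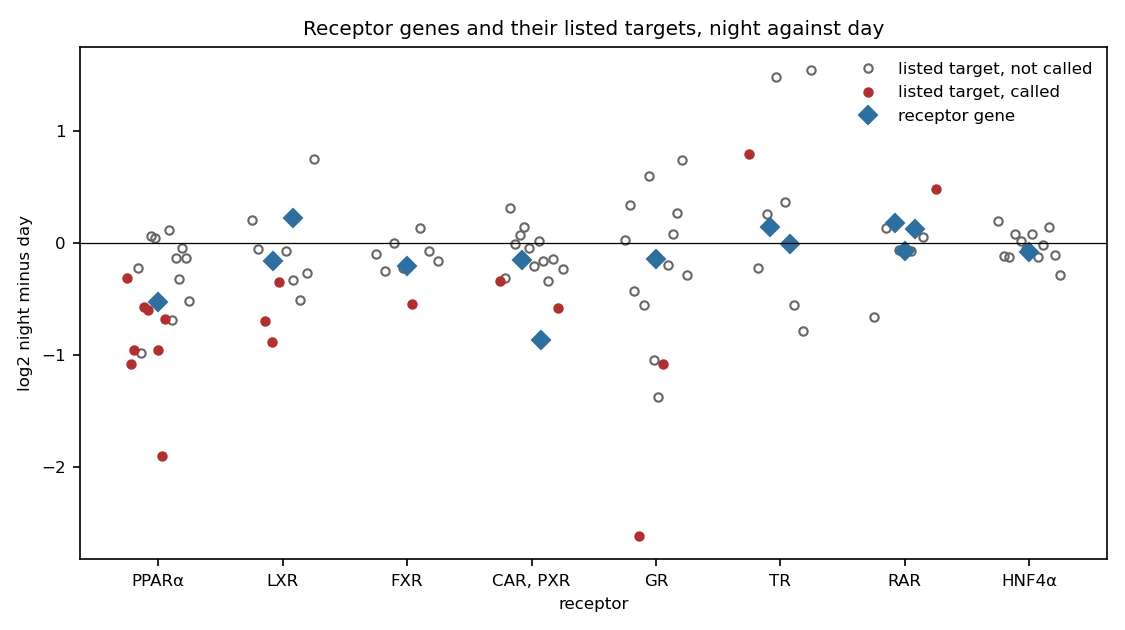
Night minus day log2 difference of the listed targets of 8 receptor groups (circles, filled red where called) and of the receptor genes themselves (blue diamonds). Called targets lie below 0 for PPARα (Ppara at -0.52), for CAR and PXR (Nr1i3 at -0.86, Nr1i2 at -0.15), for FXR and for GR. They also lie below 0 for LXR, where Nr1h3 is at 0.22 and Nr1h2 at -0.16, and above 0 for TR and RAR. For HNF4α no target is called, and Hnf4a, with its peak at ZT 11.8, is itself at -0.08.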

How the data were processed

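Per the labels' protocols, total liver RNA was depleted of rRNA and made into stranded libraries that were read from both ends. The authors deposited whole-number exon counts per gene, not normalized. STAR 2.4.0i and mm10 are named per the submitters' processing notes. How reads were counted, with which annotation and whether by strand, is not given in the sources used here. Time points and replicate numbers came from the titles. Receptors were found by symbol, and positions and the union of exons for CPM per kb were taken from GENCODE M21 (GRCm38, mm10), in which 22054 of 22618 identifiers were found; genes that share exon bases are uncertain.

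Counts were fitted for all genes with edgeR 4.0.16 under R 4.3.3 (factors by TMM, filterByExpr with minimum count 10 and minimum total 15, glmQLFit and glmQLFTest), leaving 17142 genes and 33 of the 34 receptors (not Vdr). Tests were a 24 h cosine and sine, the 6 time points, and night minus day, with Benjamini-Hochberg adjustment over all genes and calls at an adjusted p under 0.05. Ranges with 95% intervals and peaks with SE came from least squares on log2 CPM (prior count 2, 9 residual degrees of freedom). Both the interval of a range and the SE of a peak are approximate. The SE of a contrast is its log2 value over the root of F. Chi-square per degree of freedom between libraries of the same time point was 16.8 or more, above counting error alone, and each was counted once; this does not tell separate animals from separate preparations.

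Named genes were every receptor, with all 12 values for those called in any test and for the most abundant per kb of a role class without a call, and up to 3 called genes of each pathway list, by the 24 h adjusted p, or the 2 most abundant. Lists of targets, coactivators, ligand supply and cell type markers came from general knowledge. Receptors and lists were chosen with earlier results of these data known. Corepressors are not reported here. Alternatives were RLE factors, total counts only, no filter, DESeq2 1.42.0, limma-voom (limma 3.58.1), a replicate block, each library left out, and 2 pairs of ZT02 and ZT06 libraries left out. Upstream sequences are from RefSeq (GRCm38.p6).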

Additional observations from a re-analysis of the deposited data

Results flagged for a closer look

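In 8 of the 62 groups examined (6 day or 6 night libraries of 1 receptor), 1 library stood far from the other 5. Its gap to its nearest neighbour was over 0.625 of the group's range. Chance gives this in about 1 in 20 groups only if values are independent draws from a common normal distribution. Each group here pools several time points, and groups of different receptors share libraries, so that rate need not apply. The 8 is therefore not read as more than chance would give. By day, Rarb was at 16.6 CPM in ZT02 replicate 1 (next 9.59), Nr0b2 at 58.2 CPM in the same library (next 33.8), Nr1i2 at 91.7 CPM in ZT02 replicate 2 (next 76.3) and Nr4a1 at 6.44 CPM in ZT10 replicate 1 (next 1.48). Summed hepatocyte, Kupffer cell, erythroid and immediate-early markers were also highest in ZT02 replicate 1, and their part was not tested. At night, Pparg was at 7.19 CPM in ZT14 replicate 2 (next 4.11). Summed pancreatic acinar markers, picked from the marker sets after the values were seen, were also highest there, at 37.4 CPM. Adipocyte markers in that library summed to 0.229 CPM. The part of either cell type was not tested. In ZT14 replicate 1, Esrra was high at 55.7 CPM (next 40.7), while Nr2f2 at 23.9 CPM (next 28.7) and Nr3c2 at 17.9 CPM (next 25.4) were low.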

How the results depend on the processing

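Among the receptors, the calls of Esr1 and Hnf4a and the night calls of Nr1i3 and Nr2c2 held in all 20 alternatives, while those of Ppara, Nr1h4 and Esrra and the 6-time-point call of Nr2c2 did not. With ZT02 replicate 1 and ZT06 replicate 2 both left out, the number called in the 24 h test (6) was 2. Over 6 time points (3) it was 9 in DESeq2, 5 without either pair of ZT02 and ZT06 libraries, and 2 to 6 without 1 library. Between night and day (3) it was 5 in DESeq2 and 2 to 5 without 1 library. Without 1 library the 24 h count was 4 to 8. With the replicate block the counts were 5, 3 and 3, and the 24 h calls of Nr1h4 (edgeR adjusted p = 0.0587) and of the listed gene Dusp1 (0.0601) and the night call of Ncoa2 (0.0503) were lost. Replicate numbers share no stated source, so the block was not used. Their deviations correlated over 0.1 in 5 of 15 pairs of time points and under -0.1 in 5 (r -0.22 to 0.50, over 9876 genes). The highest r, 0.50, was between ZT02 and ZT06, where replicate 2 was the higher for both Ppara and Nr1i3. The next was 0.26, between ZT14 and ZT18. The tests treat all libraries as independent, which was not shown for ZT02 and ZT06. The cause of the changes in the counts was not tested. Depth limits receptors near 1 CPM (Nr2f1, 13 to 44 counts).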
